A study of Mus musculus with 8 samples.

Results

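The enzymes of glycolysis and the glucose transporter Slc2a3 were followed in the blood of mice that received cobalt chloride (CoCl2) and of controls, with Affymetrix arrays of 1 colour. The set held 10 genes measured by 15 probe sets, out of 45101 probe sets in the value table. Its members were chosen by probe set ID: Slc2a3, Hk2, Gpi1, Aldoa, Tpi1, Pgk1, Pgam1, Eno1, Pkm and Ldha. The gene names came with the list of IDs, because nothing in the deposited files links a probe set to a gene, and all 10 symbols are current RefSeq symbols. The other enzymes of the pathway and the markers of blood cell types could not be looked up for the same reason and were not analysed here.

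The CoCl2 group held 4 arrays, whose stress label is chemical hypoxia, and the control group held 4 arrays. The labels put the CoCl2 supplement at 200 ng per 100 ml daily, and blood was taken from the vena cava after 15 days. That treatment text stands with the CoCl2 samples and places both groups at room condition, whereas the titles of the control samples call them chamber controls. Strain, sex and age are not given in the labels used here. Whether every array stands for an animal of its own is not stated, and p-values therefore measure array-to-array spread, which may be technical. No batch is named in the labels, and a batch that ran with the groups cannot be told apart from CoCl2. The sample titles carry numbers that lie in a separate range for each group, and what they stand for is not stated.

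Glycolysis splits glucose into pyruvate in the cytoplasm and yields ATP without oxygen, and lactate dehydrogenase then turns pyruvate into lactate. Mature red blood cells have no mitochondria and depend on it, and neutrophils and platelets rely on it heavily. Cobalt ions stabilise the hypoxia-inducible factors at normal oxygen, and genes of glucose uptake and glycolysis are textbook targets of these factors. Whole blood is a mixture of cells, so in these arrays a change in the number of cells of a type and a change in RNA per cell cannot be told apart.

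Values were log2 expression with the decimal point restored, as the section on processing describes. Of the 120 member values 1 had several possible readings, that of Hk2 in control replicate 1. All 15 member probe sets passed the filter on dim probe sets, a mean log2 value of at least 2.90 over the 8 arrays, which left 22519 probe sets for the test. Over all non-AFFX probe sets the median log2 value per array lay between 2.79 and 2.80 with CoCl2 and between 2.84 and 2.89 in controls. Over the tested probe sets the order was the other way, with medians of 4.37 to 4.43 with CoCl2 and of 4.23 to 4.29 in controls. Arrays of one group correlated at 0.951 to 0.982 over probe sets, and arrays of different groups at 0.833 to 0.907. The bioB and bioC hybridisation controls, bacterial transcripts added to each sample, had mean log2 values of 11.17 to 11.47 with CoCl2 and of 12.97 to 13.40 in controls. Their part in the results was not tested beyond the scaling on them given further on.

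With the values as restored, 10 of the 15 member probe sets rose with CoCl2 at a limma adjusted p under 0.05, and 0 fell, where centring on beta-actin instead left 1 higher and 1 lower. Among all tested probe sets 28.6% were higher and 16.5% lower by the same rule. At an unadjusted p under 0.05, 12 members were higher and 0 lower, against 34.5% higher and 19.7% lower among all tested probe sets. All 3 Aldoa probe sets rose, as did the only member probe set of each of Tpi1, Pgk1, Pgam1, Eno1, Pkm and Ldha. Of the Slc2a3 probe sets 1 of 2 rose, whereas none of Hk2 and Gpi1 passed. The ratios of the 10 that rose ran from 1.36 for Ldha to 2.38 for Pkm. The members' median log2 difference was 0.62, against 0.19 over all tested probe sets, and 14 of 15 members lay above that median. Most members are bright, and 9 of the 13 with a mean log2 value of at least 7 rose, where 35.2% of all tested probe sets that bright were higher. The median log2 difference of all tested probe sets that bright was 0.27. In the test limited to the brightest 25% by mean, the median was 0.41 over all probe sets and 0.62 over the members. There 4539 of 11260 probe sets were higher, and 9 of 14 members. In 8 members every CoCl2 array lay above every control array, which held for 27.3% of all tested probe sets.

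**Figure D1:**
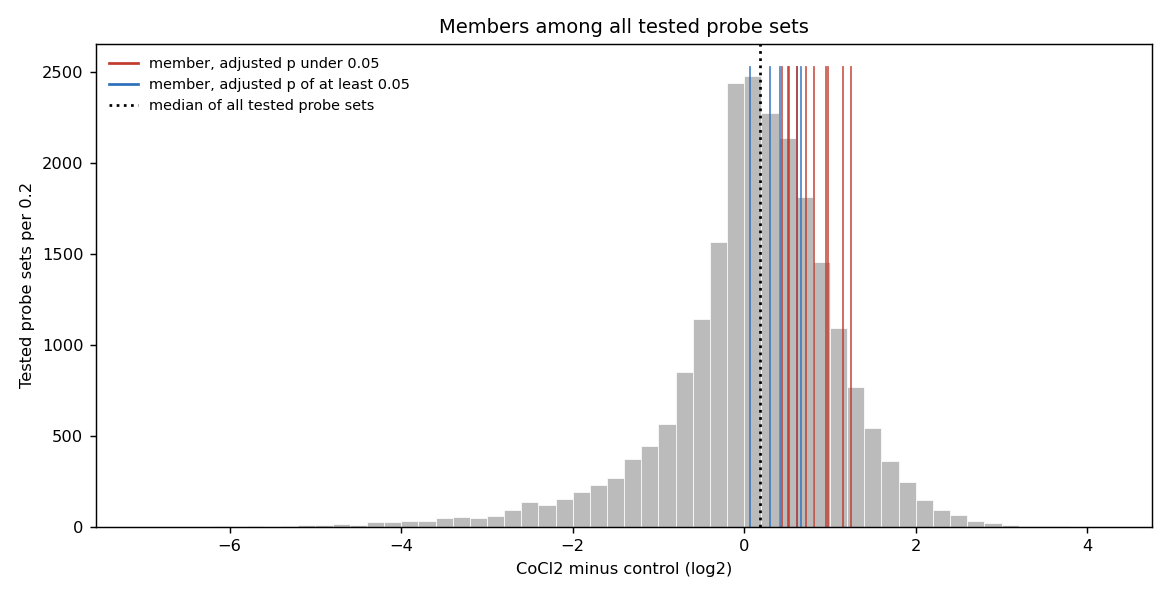
Distribution of the log2 difference, CoCl2 minus control, over the 22519 tested probe sets, with the 15 member probe sets marked. All 15 members lie above 0 with the values as restored, and 14 lie above the median of all tested probe sets at 0.19, whereas after centring on beta-actin only 7 members lie above 0.

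The 250 bases before the transcription start were read for the members from RefSeq promoter windows of GRCm38.p6, because most of these genes were higher together. The short core that hypoxia-inducible factors bind was searched as ACGTG and as GCGTG on both strands, that is also as CACGT and CACGC. The palindrome CACGTG counts on both strands. Windows were found for 9 of the 10 genes, all but Slc2a3, and there were 15 of them because some genes have several starts. ACGTG was in 7 of the 15 windows, belonging to 6 genes. GCGTG was in 5 of the 15 windows, and either core was in 11 windows of 7 genes. Some windows overlap, so that an ACGTG of Aldoa and a pair of GCGTG of Eno1 are each counted in 2 windows. Of all 32851 promoter windows of this length, 16.6% held ACGTG, 28.2% held GCGTG and 38.6% held either. Base composition was not matched between the windows, and a match is a description of letters, not of a bound site. The windows of Pkm and Tpi1 are shown because these genes had the largest differences, and those of Ldha, Pgk1 and Hk2 because they held the most copies of ACGTG, with 5 in Ldha and 2 each in Pgk1 and Hk2. Hk2 did not pass the test. Capitals mark each ACGTG, and its reverse complement CACGT, on the strand printed, which is the strand of the gene. Ldha lies at chr7:46845554-46845803 on the plus strand, Pgk1 at chrX:106186850-106187099 on the plus strand, Pkm at chr9:59656977-59657226 on the plus strand, and Tpi1 at chr6:124814159-124814408 and Hk2 at chr6:82774455-82774704 on the minus strand.
Ldha: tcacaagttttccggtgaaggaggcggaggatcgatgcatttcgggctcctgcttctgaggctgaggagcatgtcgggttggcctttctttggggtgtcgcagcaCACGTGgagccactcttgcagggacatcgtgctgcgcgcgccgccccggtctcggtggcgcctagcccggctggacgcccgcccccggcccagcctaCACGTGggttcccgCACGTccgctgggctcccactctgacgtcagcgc
Pgk1: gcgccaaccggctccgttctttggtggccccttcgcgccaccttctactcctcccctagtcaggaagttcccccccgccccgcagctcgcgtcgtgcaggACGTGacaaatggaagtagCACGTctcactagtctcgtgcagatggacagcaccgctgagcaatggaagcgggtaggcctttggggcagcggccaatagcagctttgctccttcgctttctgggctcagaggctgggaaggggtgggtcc
Pkm: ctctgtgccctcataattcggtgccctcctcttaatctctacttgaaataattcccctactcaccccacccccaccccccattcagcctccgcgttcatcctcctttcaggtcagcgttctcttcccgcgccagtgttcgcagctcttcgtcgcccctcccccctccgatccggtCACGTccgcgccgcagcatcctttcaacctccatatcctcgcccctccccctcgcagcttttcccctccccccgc
Tpi1: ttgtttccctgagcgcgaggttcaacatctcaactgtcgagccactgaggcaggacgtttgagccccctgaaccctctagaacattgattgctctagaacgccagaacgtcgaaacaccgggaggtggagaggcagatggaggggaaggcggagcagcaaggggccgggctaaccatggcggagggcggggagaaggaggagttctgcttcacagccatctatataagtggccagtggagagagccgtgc
Hk2: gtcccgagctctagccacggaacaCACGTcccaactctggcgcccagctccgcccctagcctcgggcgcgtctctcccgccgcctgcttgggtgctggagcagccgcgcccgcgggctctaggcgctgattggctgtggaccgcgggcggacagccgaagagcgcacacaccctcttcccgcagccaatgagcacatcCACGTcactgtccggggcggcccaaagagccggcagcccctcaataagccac
In Ldha 2 of the marked stretches are the palindrome CACGTG, each counted on both strands among the 5 copies, so the distinct stretches are fewer. The palindrome was in 6.02% of all windows. In Pgk1 the matches stand 150 and 131 bases before the start, in Hk2 they stand 226 and 52 bases before it, and in Pkm the match stands 75 bases before it. Pkm has another window, at chr9:59656326-59656575, with neither core. The Tpi1 window has neither core, nor has that of Gpi1.

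Glucose enters the cell through Slc2a3, the high-affinity transporter GLUT3 of neurons, white blood cells and platelets. Its probe set 1427770_a_at had log2 values of 4.32, 3.87, 3.89 and 4.27 in CoCl2 replicates 1 to 4 and of 3.16, 3.42, 3.06 and 2.81 in the controls. All 4 CoCl2 arrays lay above all 4 controls. The log2 difference was 0.98 (SE 0.18, limma adjusted p = 0.00277), a ratio of 1.97. The other probe set, 1437052_s_at, had log2 values of 12.04, 11.77, 11.99 and 11.71 with CoCl2 and of 11.87, 12.03, 11.43 and 11.92 in controls. The groups overlapped throughout, and control replicate 2 was nearly as high as the highest CoCl2 array. Its log2 difference was 0.067 (SE 0.17, 95% interval -0.31 to 0.44, limma adjusted p = 0.759), and it turned negative under quantile normalization, under median and beta-actin centring, and without control replicate 3. Relative to the median of all tested probe sets these differences were 0.79 for 1427770_a_at and -0.12 for 1437052_s_at. Within arrays, the difference of 1437052_s_at was 0.91 lower than that of 1427770_a_at, with a two-sided exact permutation p of 0.0286, the smallest that 4 against 4 arrays allow, and 0.0667 after adjustment over 7 pairs of probe sets. In Affymetrix IDs the ending _s_at marks probes shared by transcripts of different genes, and _a_at marks probes shared by transcripts of 1 gene. The probe set 1427770_a_at is dim. Its control mean of 3.11 lay near the median of all non-AFFX probe sets, 2.84 to 2.89 on the control arrays. It did not enter the test limited to the brightest 25%.

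Hexokinase 2, made by Hk2, traps glucose in the cell as glucose 6-phosphate. Its log2 values were 4.78, 4.28, 4.70 and 5.21 with CoCl2 and 3.88, 3.80, 4.74 and 5.37 in controls. The control arrays were split, with replicates 1 and 2 below every CoCl2 array and replicate 4 above all of them. The log2 difference was 0.30 (SE 0.36, 95% interval -0.52 to 1.11, limma adjusted p = 0.516), with the largest SE of all members. The interval includes a difference as large as that of Eno1. Reading control replicate 1 as 3.22 in place of 3.88 gave a log2 difference of 0.46 (limma adjusted p = 0.402), and leaving that value out as missing gave 0.11 (adjusted p = 0.827). Without control replicate 2 the difference was 0.081 and without control replicate 4 it was 0.61 (limma adjusted p = 0.124).

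Glucose-6-phosphate isomerase, encoded by Gpi1, turns glucose 6-phosphate into fructose 6-phosphate. Its probe set 1420997_a_at had log2 values of 8.15, 8.07, 8.90 and 8.80 with CoCl2 and of 7.75, 7.69, 7.65 and 8.35 in controls. Control replicate 4 lay above CoCl2 replicates 1 and 2, and the other 3 controls lay below every CoCl2 array. The log2 differences were 0.62 (SE 0.25, limma adjusted p = 0.0693) for 1420997_a_at, 0.66 (SE 0.26, limma adjusted p = 0.0677) for 1450081_x_at and 0.42 (SE 0.24, limma adjusted p = 0.181) for 1434814_x_at, so none passed. In all 3 probe sets CoCl2 replicates 3 and 4 lay above replicates 1 and 2. Without control replicate 4, 1420997_a_at passed with a log2 difference of 0.78 (limma adjusted p = 0.0277) and 1450081_x_at with 0.86 (limma adjusted p = 0.0196), while 1434814_x_at stayed at an adjusted p of 0.0576. Without CoCl2 replicate 2, 1420997_a_at also passed (limma adjusted p = 0.0481). With all 8 arrays kept and weighted by quality, 1420997_a_at (log2 difference 0.74, limma adjusted p = 0.0315) and 1450081_x_at (0.79, adjusted p = 0.0292) passed as well. The ending _x_at marks probes that may cross-hybridise with other transcripts.

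Aldolase A, encoded by Aldoa, splits fructose 1,6-bisphosphate into a pair of triose phosphates. Its probe set 1434799_x_at had log2 values of 10.11, 9.87, 9.94 and 9.76 with CoCl2 and of 8.69, 9.04, 9.01 and 9.66 in controls. The groups did not overlap, although control replicate 4 lay just below the lowest CoCl2 array. The log2 difference was 0.82 (SE 0.21, limma adjusted p = 0.0124), a ratio of 1.76. The other Aldoa probe sets gave 0.72 (SE 0.20, limma adjusted p = 0.0192) for 1433604_x_at and 0.52 (SE 0.18, limma adjusted p = 0.0447) for 1416921_x_at. The groups overlapped only for 1416921_x_at, in which control replicate 4 reached 9.78, above CoCl2 replicate 4. That call ended without CoCl2 replicate 1, 2 or 3 and without control replicate 1, 2 or 3, with adjusted p-values of 0.068 to 0.108, and that of 1433604_x_at ended without CoCl2 replicate 1 (limma adjusted p = 0.0512). The call of 1416921_x_at also ended with no filter on dim probe sets (limma adjusted p = 0.0784), under quantile normalization (log2 difference 0.25, adjusted p = 0.251), median centring (0.38, adjusted p = 0.105) and beta-actin centring. For 1433604_x_at quantile normalization (0.44, limma adjusted p = 0.0853) and beta-actin centring ended it. All 3 Aldoa probe sets end in _x_at, and RefSeq names 2 Aldoa pseudogenes, so a share of this signal from near-identical copies cannot be separated.

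Triosephosphate isomerase, encoded by Tpi1, interconverts the triose phosphates so that both can go down the pathway. Tpi1 had log2 values of 8.19, 7.76, 7.41 and 7.10 with CoCl2 and 6.27, 6.53, 6.24 and 6.80 in controls. Every CoCl2 array lay above every control, and the CoCl2 arrays were more spread out than the controls. The log2 difference was 1.16 (SE 0.24, limma adjusted p = 0.00553), a ratio of 2.23, and 88.9% of all tested probe sets had a lower difference. Among the CoCl2 arrays replicate 1 was highest and replicate 4 lowest, unlike Gpi1, where replicates 3 and 4 were highest.

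Glyceraldehyde-3-phosphate dehydrogenase, encoded by Gapdh, oxidises the triose phosphate and is the step that the array carries as a control, with probe sets at the 3′, middle and 5′ parts of the transcript. The mean log2 value over these 3 probe sets was 10.55, 10.54, 10.52 and 10.47 with CoCl2 and 10.34, 10.47, 10.59 and 10.58 in controls. The groups overlapped, with control replicates 3 and 4 above every CoCl2 array. The means were 10.52 ± 0.04 (SD, n = 4) and 10.49 ± 0.12 (SD, n = 4), a difference of 0.028 with a two-sided exact permutation p of 0.743. By part, the differences were 0.072 at the 3′ part, 0.14 in the middle and -0.13 at the 5′ part. Their two-sided exact permutation p-values were 0.343, 0.2 and 0.229. The difference of the mean over the 3 parts turned to -0.14 under quantile normalization, to -0.62 under beta-actin centring, to -0.11 under median centring and, without control replicate 1, to -0.024. The two-sided exact permutation p was 0.0286 under quantile normalization and under beta-actin centring, and 0.171 under median centring. Centring on bioB and bioC gave 1.85, also with an exact permutation p of 0.0286. Whether Gapdh differed thus depended on the scaling. The beta-actin control probe sets, a cytoskeletal transcript often used as a reference, averaged 12.32 ± 0.09 (SD, n = 4) in the CoCl2 arrays, while the control arrays averaged 11.67 ± 0.08 (SD, n = 4). That difference of 0.65 had a two-sided exact permutation p of 0.0286, the smallest possible for these arrays. Neither control gene is a member of the set.

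**Figure D2:**
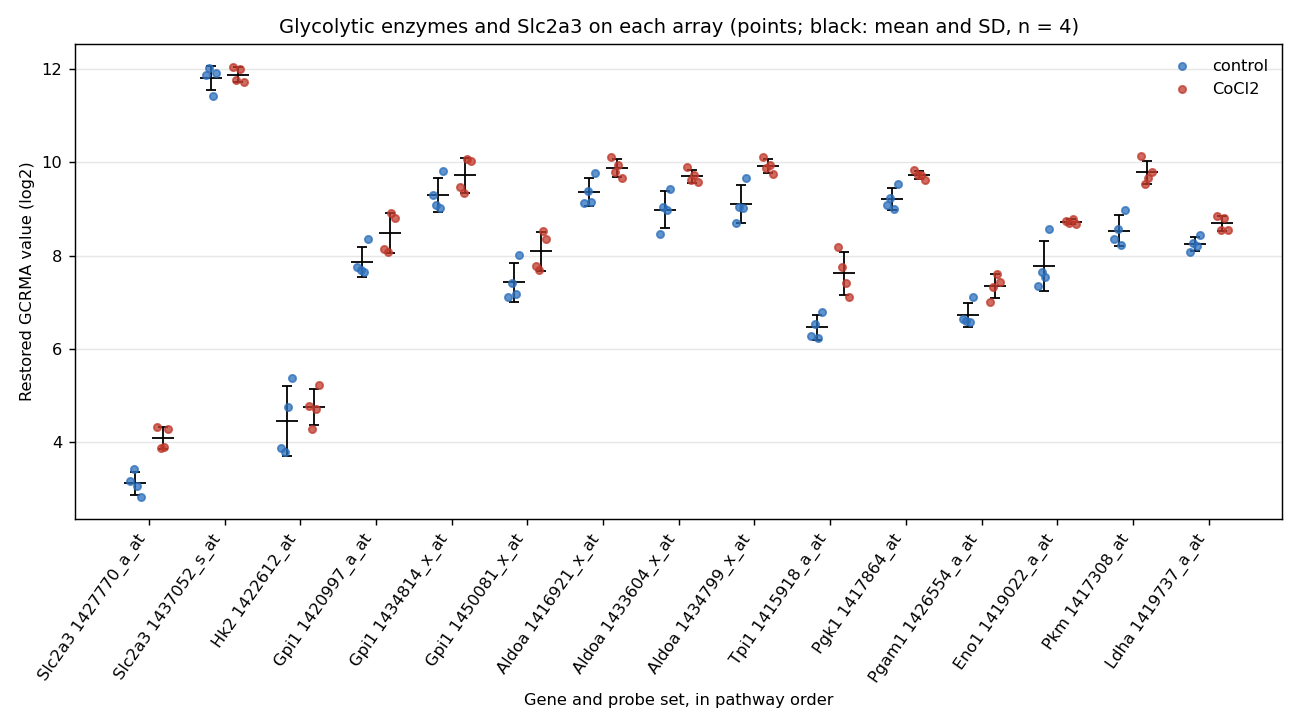
Log2 expression of the 15 member probe sets on each of the 8 arrays, with control arrays in blue, CoCl2 arrays in red and black bars for the mean and SD of each group (n = 4). With the values as restored the groups do not overlap in 8 members, Pkm and Tpi1 have the largest differences between group means, and the groups overlap in Hk2, all 3 Gpi1 probe sets, Aldoa 1416921_x_at, Pgam1 and Slc2a3 1437052_s_at, whose sign turns under quantile normalization, median centring and beta-actin centring.

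Phosphoglycerate kinase 1, encoded by Pgk1, makes the first ATP of the pathway. Pgk1 had log2 values of 9.83, 9.72, 9.73 and 9.61 with CoCl2 and 9.09, 9.23, 8.99 and 9.53 in controls. The groups did not overlap, and control replicate 4 lay just below the lowest CoCl2 array. The CoCl2 mean was 0.51 higher on the log2 scale, with an SE of 0.15 (limma adjusted p = 0.0226), a ratio of 1.43. The call ended without CoCl2 replicate 1 or 3 and without control replicate 1 or 3, with limma adjusted p-values of 0.0527 to 0.0561. It also ended under quantile normalization (log2 difference 0.23, limma adjusted p = 0.193), median centring (0.38, adjusted p = 0.0647) and beta-actin centring. RefSeq names 3 Pgk1 pseudogenes or related sequences.

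Phosphoglycerate mutase 1, encoded by Pgam1, moves the phosphate within phosphoglycerate. Values of Pgam1 on the log2 scale were 7.01, 7.33, 7.61 and 7.44 with CoCl2 and 6.65, 6.59, 6.57 and 7.12 in controls. Control replicate 4 lay above CoCl2 replicate 1, which was the only overlap. For Pgam1 the log2 difference was 0.62 (SE 0.18, limma adjusted p = 0.0243), a ratio of 1.53. The call ended without CoCl2 replicate 3 or 4 and without control replicate 1, 2 or 3, with limma adjusted p-values of 0.0517 to 0.0682. Quantile normalization (log2 difference 0.30, limma adjusted p = 0.188), median centring (0.48, adjusted p = 0.0599) and beta-actin centring ended it too. RefSeq names 2 Pgam1 pseudogenes.

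Enolase 1, encoded by Eno1, makes phosphoenolpyruvate. Eno1 stood at log2 values of 8.74, 8.69, 8.79 and 8.67 with CoCl2 and 7.35, 7.65, 7.53 and 8.56 in controls. The CoCl2 arrays were close to each other, and control replicate 4 was far above the other controls and just below them. Eno1 differed by 0.95 on the log2 scale, with an SE of 0.25 (limma adjusted p = 0.0141), a ratio of 1.93.

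Pyruvate kinase of the muscle type, encoded by Pkm, makes pyruvate and ATP. Its log2 values were 10.13, 9.54, 9.67 and 9.79 with CoCl2 and 8.35, 8.58, 8.23 and 8.98 in controls. Every CoCl2 array lay above every control, with the widest gap between the groups' means of all members. The means were 9.78 ± 0.25 (SD, n = 4) and 8.53 ± 0.33 (SD, n = 4). Pkm differed by 1.25 on the log2 scale (SE 0.20, 95% interval 0.79 to 1.71, limma adjusted p = 0.00154), and 90.7% of all tested probe sets had a lower difference. Relative to the median of all tested probe sets the difference was 1.07. Pkm stayed past the threshold in all 20 alternatives run, with a highest limma adjusted p of 0.0239.

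Lactate dehydrogenase A, encoded by Ldha, turns pyruvate into lactate and regenerates the NAD that glycolysis needs. Its log2 values were 8.85, 8.55, 8.81 and 8.55 with CoCl2 and 8.08, 8.26, 8.21 and 8.43 in controls. The groups did not overlap, and both were narrow. Ldha differed by 0.44 on the log2 scale, with an SE of 0.14 (limma adjusted p = 0.0305), the smallest of those past the threshold. The call ended without CoCl2 replicate 1 or 3 and without control replicate 1, 2 or 3, with limma adjusted p-values of 0.0575 to 0.0802. Ldha also lost it under quantile normalization (log2 difference 0.18, limma adjusted p = 0.270), median centring (0.31, adjusted p = 0.0999) and beta-actin centring. RefSeq names 3 Ldha pseudogenes.

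Within the control group 1 array stood above the others across most members. Control replicate 4 was the highest control in 13 of the 15 members, which held for 34.1% of all tested probe sets. Its mean deviation from the control means over the members was 0.42 on the log2 scale, against -0.21, -0.04 and -0.16 for control replicates 1 to 3. In both Slc2a3 probe sets control replicate 2 was the highest control instead, and in 1427770_a_at control replicate 4 was the lowest. Among the CoCl2 arrays, replicate 1 was highest in 9 members and replicate 3 in 5, against 29% and 19.8% of all tested probe sets. Replicates 2 and 4 were each lowest in 7 members, against 20.2% and 36.9%. Blood cell counts per array are not given in the labels used here, and cell type markers could not be named, so the part of cell composition in this order was not tested.

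**Figure D3:**
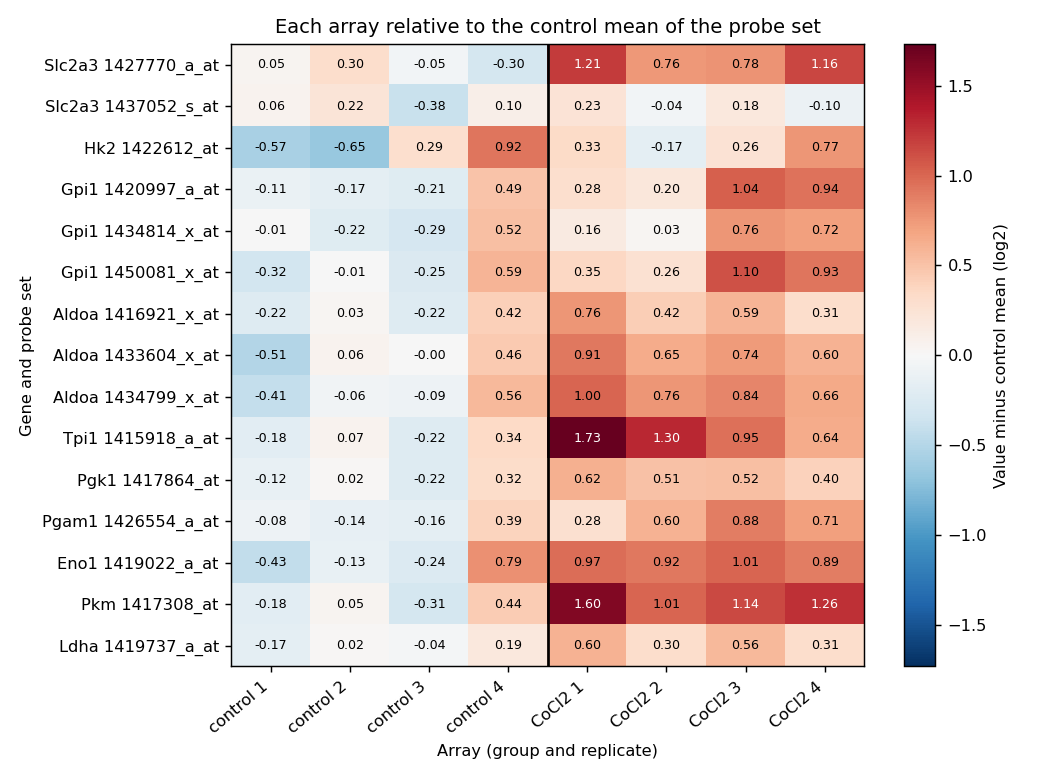
Each cell is the log2 value of a member probe set (vertical axis) on an array (horizontal axis) minus the mean of the 4 controls for that probe set, in red where higher and in blue where lower. Control replicate 4 lies above the control mean in most members, by 0.42 on average, and the other 3 controls average between -0.21 and -0.04.

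The count of members that rose depended on how the arrays were scaled. It was 5 under quantile normalization, where 22.6% of all tested probe sets were higher, and 6 under median centring, where 22.6% were higher. These settings lowered the median difference of all tested probe sets to 0.10 and 0.05. Centring on the Gapdh control probe sets left 10 members higher, with 27.1% of all tested probe sets. It moved each difference by only 0.028, the Gapdh difference itself, so it is a weak check on the count. Centring on bioB and bioC made all 15 members higher, but also 91.0% of all tested probe sets. Centring on beta-actin, itself higher with CoCl2, left 1 member higher, Pkm, against 8.33% of all tested probe sets, and 1 lower, Slc2a3 1437052_s_at (log2 difference -0.58, limma adjusted p = 0.00931), against 47.2%. The median difference was then -0.46 over all tested probe sets and -0.033 over the members. Tpi1, Eno1, Aldoa 1434799_x_at and Slc2a3 1427770_a_at lost the call under beta-actin centring and under no other alternative in which they were tested.

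**Figure D4:**
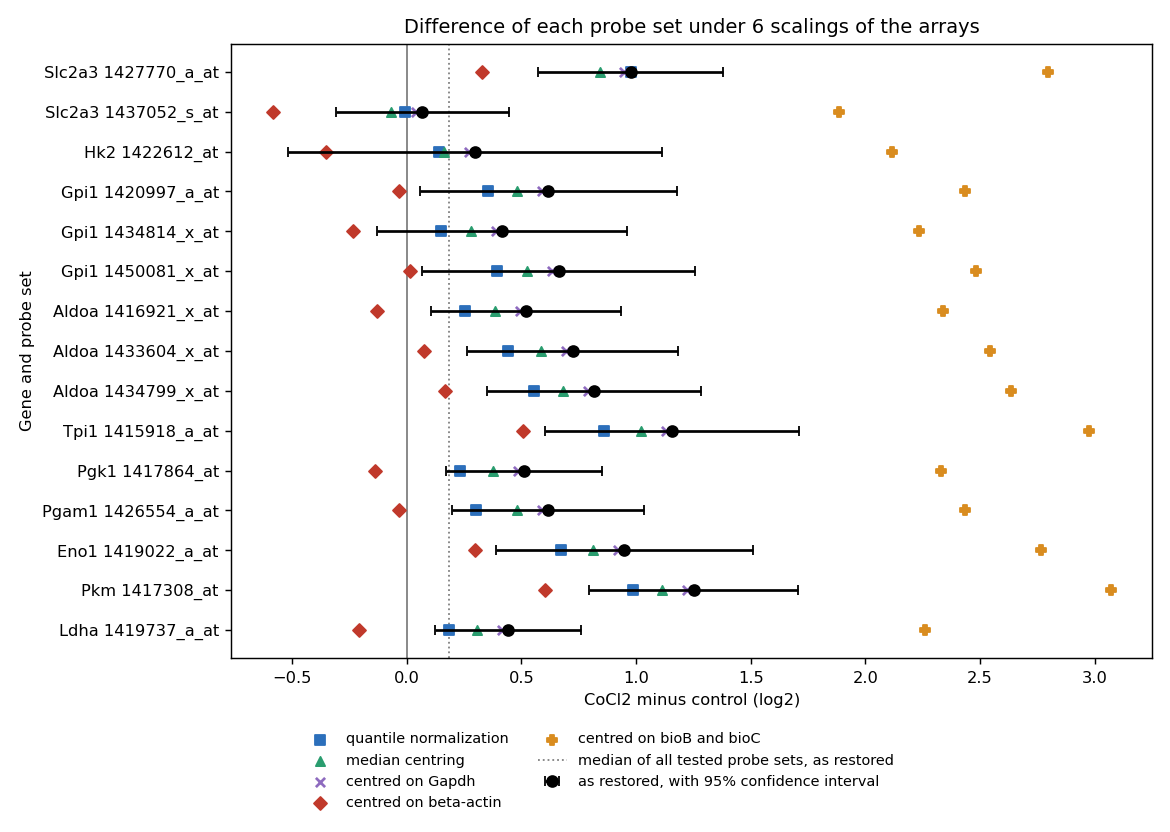
Log2 difference, CoCl2 minus control, of each member probe set under 6 scalings of the arrays, with 95% confidence intervals on the restored values and a dotted line at 0.19, the median of all tested probe sets. Under beta-actin centring 8 members lie below 0 and Pkm stays highest, whereas Slc2a3 1437052_s_at also does so under quantile normalization and median centring.

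Single arrays also moved the count. It was 6 without CoCl2 replicate 1 (24.2% of all tested probe sets higher), 6 without CoCl2 replicate 3 (22.7%), 6 without control replicate 1 (22.5%) and 6 without control replicate 3 (23%). Without control replicate 4 it was 12, against 28.5% of all tested probe sets, and the gain was in Gpi1. Pkm, Tpi1, Eno1, Aldoa 1434799_x_at and Slc2a3 1427770_a_at kept the call with each of the 8 arrays left out in turn. The Slc2a3 probe set among these is dim, and the far brighter Slc2a3 1437052_s_at passed in none of these fits.

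In the authors' deposited table, made with the SAM method, 13 of the 15 members were higher at a q-value under 5%, where 47.6% of its 24878 probe sets were. The authors' deposited table gave Pkm a fold change of 2.09, Tpi1 one of 2.26 and Slc2a3 1427770_a_at one of 2.23. Its log2 differences are not those of the restored values. Slc2a3 1427770_a_at had 1.15 there against 0.98 here, and Tpi1 had 1.16 in both. Lower there were Pkm (1.07 against 1.25), Eno1 (0.67 against 0.95) and Aldoa 1434799_x_at (0.60 against 0.82). The members' median was 0.51 there and 0.62 here. In the authors' deposited table the members at or above that q-value were Hk2 and Slc2a3 1437052_s_at, both with a q-value of 7.57%, and the Gpi1 probe sets had q-values of 1.20% to 2.76%. The arrays that entered that table are not stated in the sources used here.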

How the data were processed

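RNA from whole blood was amplified and biotin-labelled, per the labels' protocols, with 8 samples on 8 arrays. GCRMA and Partek are named without versions, per the submitters' processing notes. In the value table the authors deposited, each cell is a score, that is a log2 value that lost its decimal point. The point was restored from the digits: 353383 of 360808 cells had 1 digit before it, 7013 had 2, 399 were spreadsheet day numbers, 13 stood as they were and 1309 (0.363%) allowed several readings, settled by the nearest unambiguous array without use of the groups. That the restored values, 1.69 to 16.89, are log2 is inferred from their range and no header states it. The planned design assumed log2 values as deposited, and the test was kept.

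A second deposited table is a SAM comparison, per the file headers, with a score, a log2 difference, its error, a fold change (ratio) and a q-value in percent, all as deposited by the authors. CoCl2 was compared with control with limma 3.58.1 in R 4.3.3 (lmFit, eBayes, two-sided, Benjamini-Hochberg, threshold 0.05) on the 22519 non-AFFX probe sets in the upper 50% by mean. The fit was tested on simulated data. The restoration was tested only by removing the point again from the restored values by the same rules, which cannot show a wrong reading. Precision is limited by the small number of arrays (median SE 0.21). Gapdh and beta-actin controls were compared by exact permutation of the arrays.

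All 15 member probe sets are named. Members, lists and tests were chosen with earlier results of these data known. Lists of other glycolytic genes, transporters, flux regulators, related pathways and blood cell markers, and the search for similar patterns, are void here because no table given pairs probe sets with genes. Alternatives were 2 filters, 3 planned scalings, array weights, a robust trended prior, the replicate number as a block, ambiguous cells set to missing, each array left out and the authors' table. Centring on Gapdh or beta-actin, the other reading of the Hk2 value and the probe set pairs were added after seeing the data.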

Additional observations from a re-analysis of the deposited data

Results flagged for a closer look

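Of 52 groups of 4 values examined, CoCl2 and control groups together, 3 were flagged, where chance gives about 1 in 20 groups. In all 3 control replicate 4 stood apart from the other 3 controls. Its log2 value of Gpi1 1420997_a_at was 8.35, against 7.65 to 7.75 in the other controls. Its log2 value of Pgam1 was 7.12, against 6.57 to 6.65. Its mean over the 3 Gpi1 probe sets was 8.73, against 7.94 to 8.06, and this value shares probe sets with the first.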

How the results depend on the processing

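The count of members higher with CoCl2 was 10, and moved to 5 under quantile normalization, 6 under median centring and 1 under beta-actin centring, with a range of 6 to 12 when 1 array was left out. The count lower was 0, and 1 under beta-actin centring, with 0 to 0 over the left-out arrays. Of all tested probe sets 10163 passed, 6146 in the upper 25%, where fewer were tested, 21019 when centred on bioB and bioC, 17184 in the authors' table, and 8012 to 10297 with 1 array left out. Slc2a3 1437052_s_at turned negative under quantile normalization (-0.00916), median centring (-0.069), beta-actin centring (-0.58) and without control replicate 3 (-0.059), with -0.059 to 0.14 over the left-out arrays. Beta-actin centring also turned Hk2 (-0.35), Gpi1 1420997_a_at (-0.033) and 1434814_x_at (-0.23), Aldoa 1416921_x_at (-0.13), Pgk1 (-0.14), Pgam1 (-0.034) and Ldha (-0.21). The Gapdh controls turned to -0.14 under quantile normalization, -0.11 under median centring and -0.62 under beta-actin centring, rose to 1.85 when centred on bioB and bioC, and ran from -0.024 to 0.058 over the left-out arrays. The cause was not tested. No shared deviation of same-numbered arrays was seen. Their correlations were -0.038, 0.013, 0.0097 and 0.020, and no CoCl2 array correlated best with its own number. All correlations between CoCl2 and control arrays were small, -0.049 to 0.040, so they cannot settle whether the numbers pair the arrays. With the replicate number as a block 7 members were higher, against 25.7% of all tested probe sets, and the calls of Aldoa 1416921_x_at, Pgk1 and Ldha ended (limma adjusted p of 0.103, 0.062 and 0.0869). Signal over background could not be examined from summarised values.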
